A study of Mus musculus with 32 samples.

Results

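The 10 genes described here encode proteins of the neuromuscular junction, the synapse between a motor axon and a muscle fibre. They were taken by symbol from the 54532 genes of the count table. The set holds the acetylcholine receptor subunit genes Chrna1, Chrnb1, Chrnd, Chrne and Chrng, the genes Musk, Lrp4 and Dok7 of the pathway that clusters the receptor, and the genes Ache and Colq of acetylcholine breakdown. All 10 were in the table, and all 10 were among the 17121 genes that passed the filter on low counts.

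The muscle acetylcholine receptor is an ion channel built of alpha, beta and delta subunits together with either gamma or epsilon. Fetal muscle, and adult fibres that have lost their nerve, use the gamma subunit (Chrng), while innervated adult fibres use epsilon (Chrne), made mainly by the nuclei under the synapse. Agrin from the nerve binds the receptor Lrp4, which switches on the kinase MuSK with the help of the adaptor Dok7, and receptors then gather under the nerve ending. Acetylcholinesterase, the product of Ache, ends each signal, and the collagen tail made from Colq anchors the enzyme in the cleft.

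The samples were RNA from tibialis anterior, a fast muscle of the shin, of C57BL/6J mice. The groups were old mice given BI01 at day 7 and day 35 after injury, old mice given vehicle at day 7, at day 35 and uninjured, and young mice given vehicle at day 7, at day 35 and uninjured, with 4 libraries in each of the 8 groups. The series calls BI01 a senolytic, meaning that it is meant to clear senescent cells, and the injury was by barium chloride (BaCl in the labels), which destroys fibres and leaves muscle stem cells to rebuild them. BI01 was given to old mice only. The uninjured libraries of both ages carry PBS in their names, and whether those muscles were injected with PBS is not stated here. Ages in months, doses and dosing times are not stated here. Nothing in the labels ties each library to its own animal, and p-values therefore measure only the spread between these samples, which may be technical.

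Libraries held 14129350 to 30439358 counts. Uninjured columns are named with the 35-day set and none with the 7-day set, and a difference between sets cannot be told apart from injury in any comparison of day 7 with uninjured muscle or with day 35. Levels are CPM, counts scaled to 1000000 per library, after TMM scaling, which adjusts for the make-up of each library. Scaled by library size alone, all genes had a median log2 fold change of 1.15 (0.14 with TMM) for day 7 in old muscle and of 1.05 (0.17 with TMM) in young muscle, so changes at day 7 are relative to the scaling. Markers of adult fast fibres (8 genes, among them Ckm, Acta1 and Myh4) were present in every library, with summed levels of 10666 to 155658 CPM in the vehicle libraries at day 7 and 215880 to 301980 CPM in uninjured libraries. Of 5 motor neuron and axon genes, Slc18a3 had no counts and Chat had at most 1 count in a library. Their summed level, mostly Tubb3 at day 7, was 0.683 to 9.25 CPM in old BI01, 2.76 to 16.8 CPM in old vehicle and 0.489 to 4.03 CPM in young libraries at day 7, and at most 0.637 CPM in old and 0.289 CPM in young uninjured libraries.

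Some libraries stood apart. Young uninjured libraries 1 and 3 had 102 and 136 CPM of Musk, against 22.7 and 9.65 CPM in young uninjured libraries 2 and 4. They also had 65.6 and 55.4 CPM of the transcription factor gene Runx1, against 6.32 and 3.38 CPM in libraries 2 and 4. Hdac4, a repressor known to act in denervated fibres, was at 354 and 448 CPM in libraries 1 and 3 and at 70.5 and 83.8 CPM in libraries 2 and 4. Old uninjured library 7 was high in regenerating fibre genes (Myh3, Myh8, Myl4, Actc1 and Tnnt2), with a summed level of 1189 CPM, while the other 3 old uninjured libraries had 97.5 to 375 CPM and the 4 young ones 47.2 to 87.2 CPM. Results on the 10 genes that rest on these libraries are given with and without them, and for the wider gene lists the calls without young uninjured libraries 1 and 3 are given.

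Injury drew the largest responses in the set. Calls were made at 0.05 on p-values of edgeR's quasi-likelihood test, adjusted over all genes tested. At day 7 in old vehicle muscle, 4 of the 10 genes were called higher than in uninjured muscle (Chrna1, Chrnd, Chrng and Lrp4) and none lower, where 64.2% of all genes were called, 34.4% higher and 29.8% lower. In young muscle, 9 were called higher and Musk lower, where 60.8% of all genes were called, 33.3% higher and 27.5% lower. The median log2 fold change of the members was 0.33 in old and 1.31 in young muscle, beside 0.14 and 0.17 over all genes. In old vehicle muscle at day 35 no member was called against uninjured (5.64% of all genes called, 3.17% higher and 2.47% lower). There 4 members and 2933 of the 17121 genes had an unadjusted p under 0.05, and DESeq2 called 1 member, Musk. With only the compared groups in the fit, edgeR called 4 members there and 2600 genes in all. The young members called at day 35 were Chrne and Lrp4, higher, and Musk, lower (15.7% of all genes called, 7.06% higher and 8.66% lower).

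**Figure D1:**
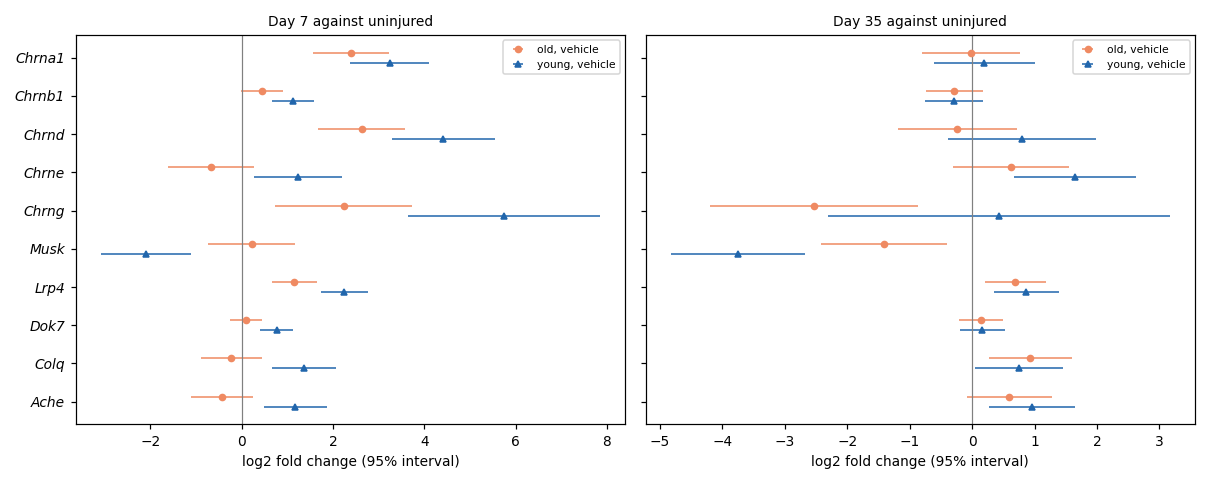
Log2 fold change of each gene at day 7 (left) and day 35 (right) against uninjured muscle of the same age, in old vehicle (circles, upper) and young vehicle muscle (triangles, lower); bars are 95% confidence intervals of the edgeR model, and each panel has its own scale. At day 7 the young values lie right of 0 for every gene except Musk (-2.10).

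The fetal subunit gene Chrng had the largest day 7 log2 fold change of the 10 genes in young muscle, while in old vehicle muscle Chrnd and Chrna1 were above it. In old vehicle muscle at day 7, libraries 7 to 10 had 75.5, 61.6, 45.0 and 54.7 CPM, against 3.97, 37.7, 7.68 and 0.226 CPM in old uninjured libraries 6 to 9. The lowest library at day 7 lay above the highest uninjured one, library 7. Chrng rose by 2.23 on the log2 scale (SE 0.73, adjusted p = 0.00965), and without old uninjured library 7 the value was 3.97. Young libraries 4 to 7 at day 7 had 27.2, 35.5, 30.4 and 12.6 CPM, against 0.541, 0.445, 0.368 and 0.579 CPM in young uninjured libraries 1 to 4. These groups were far apart, and Chrng rose by 5.75 (SE 1.02, adjusted p = 2.71e-05), which is a 53.9-fold change. At this depth the young uninjured values rest on 4 to 7 counts per library. In bulk tissue, fewer cells of a type and less RNA per cell cannot be told apart, here or in any comparison that follows.

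Chrng was low again at day 35. Old BI01 muscle had 0.828 ± 0.332 CPM (SD, n = 4), old vehicle muscle 2.16 ± 1.56 CPM and young muscle 0.675 ± 0.840 CPM. Chrng fell against day 7 of the same group, with log2 fold changes of -6.17 in old BI01 muscle (adjusted p = 5.15e-06), -4.77 in old vehicle muscle (3.17e-05) and -5.32 in young muscle (3.78e-05). Young day 35 libraries 2 and 4 had no Chrng counts. Against uninjured muscle, the day 35 value was -2.54 in old (adjusted p = 0.0664, and 0.0117 without old uninjured library 9, at -2.95) and 0.43 in young muscle (adjusted p = 0.870), whose sign turned without young day 35 library 3 (-0.58).

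The adult subunit gene Chrne took another course. In old vehicle muscle at day 35, libraries 6 to 9 had 26.9, 15.6, 14.0 and 18.5 CPM, against 13.8, 14.1, 9.84 and 10.8 CPM in old uninjured libraries 6 to 9. The groups overlapped narrowly and Chrne was not called (0.62, adjusted p = 0.548). In young muscle at day 35, libraries 1 to 4 had 19.6, 15.4, 14.1 and 28.7 CPM, against 8.27, 7.39, 3.31 and 5.79 CPM in young uninjured libraries 1 to 4, with no overlap. Chrne rose there by 1.65 (SE 0.48, adjusted p = 0.0182). The call was lost without young uninjured library 3 (1.44, adjusted p = 0.0882), without young day 35 library 4 (1.40, 0.0717) and without young uninjured libraries 1 and 3 together (1.57, 0.231).

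At day 7 Chrne was at 9.39 ± 7.65 CPM in old BI01, 7.68 ± 3.76 CPM in old vehicle and 14.7 ± 7.64 CPM in young muscle. The young rise over uninjured muscle was 1.24 (adjusted p = 0.0255). It was lost without young day 7 library 7 (0.73, adjusted p = 0.188), young uninjured library 3 (1.03, 0.0873) or 4 (1.2, 0.0545), or young uninjured libraries 1 and 3 together (1.15, 0.128). Old vehicle muscle had Chrne at 7.68 CPM at day 7 and 12.2 ± 2.14 CPM uninjured (-0.67, adjusted p = 0.204; 0.30 by library size). From day 7 to day 35 Chrne rose in old vehicle muscle by 1.29 (adjusted p = 0.0173, lost without old day 35 library 6, at 1.06 and 0.0666, or old day 7 library 7, at 1.02 and 0.0706). With these, 4 of 12 alternative fits lost that call, with values down to 0.39 and adjusted p up to 0.411. In young muscle the same comparison gave 0.41 (adjusted p = 0.457; -0.18 with library size alone) and in old BI01 muscle 0.96 (adjusted p = 0.0747, and 0.00447 without BI01 day 7 library 4, at 1.59). Chrne lies at chr11:70614883-70619216 of mm10 on the minus strand and overlaps the gene 4930544D05Rik on the other strand, which had 1110 counts in all libraries beside 7420 for Chrne. Whether counting used strand is not stated here, so some of these counts may belong to either gene.

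The ratio of the 2 subunits does not depend on library scaling. Counts were divided by gene length, and the share of Chrng in the sum of Chrng and Chrne was taken in each library. At day 7 it was 85.6, 95.7, 57.8 and 40.7% in old BI01 libraries 1 to 4, 90.9, 73.3, 60.5 and 77.0% in old vehicle libraries 7 to 10 and 51.9, 55.3, 53.4 and 16.4% in young libraries 4 to 7. At day 35 it was 0.849 to 2.45% in old BI01, 1.92 to 11.4% in old vehicle and 0 to 4.74% in young muscle. Old uninjured libraries 6 to 9 had 10.4, 52.0, 24.1 and 0.839%, and young uninjured libraries 2.39 to 4.32%. The 2 young day 35 libraries without Chrng counts allow shares of up to 0.535 and 0.424% (upper bound of the 95% Wilson interval, counting error only).

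Over 12 comparisons of this share with an exact permutation test (two-sided, 4 against 4 libraries), 6 reached 0.0286, the smallest p the design allows, which is 0.0572 after adjustment over the 12. These were day 7 against uninjured in old vehicle (75.4 ± 12.5% against 21.8 ± 22.2%) and in young muscle (44.2 ± 18.6% against 3.30 ± 0.955%), day 35 against day 7 in each of the 3 injured groups, and old against young vehicle muscle at day 7. In the last, the 4 old libraries at 60.5 to 90.9% lay above the 4 young ones at 16.4 to 55.3%. In uninjured muscle the old share was 18.5 percentage points above the young, with overlapping libraries (exact permutation p = 0.143). BI01 against vehicle differed by -5.52 points at day 7 (exact permutation p = 0.714) and -3.12 points at day 35 (exact permutation p = 0.114). The sign at day 7 turned without BI01 library 4 (4.22 points).

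**Figure D2:**
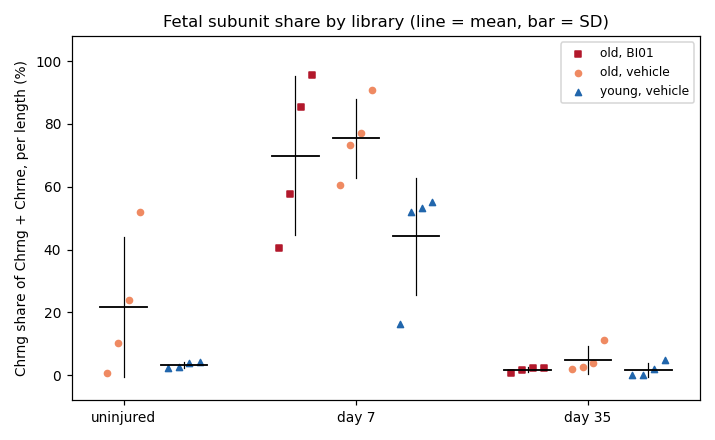
Share of Chrng in the sum of Chrng and Chrne, per gene length, in percent (vertical axis) for old BI01 (squares), old vehicle (circles) and young vehicle (triangles) muscle at each stage; each point is a library, the line is the mean and the bar the SD. At day 7 the old vehicle libraries lie between 60.5 and 90.9% and the young ones between 16.4 and 55.3%, and all day 35 libraries lie at or under 11.4%.

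The stretches before the start sites of these subunit genes were read from RefSeq (GRCm38.p6, the assembly that mm10 names) because the genes moved in different directions between day 7 and day 35. A window was found for 7 of the 10 genes, and Chrnd, Lrp4 and Colq were not matched. The letters of the E-box, CANNTG, to which myogenic factors such as myogenin bind, and of the N-box, CCGGAA, known from synapse-specific promoters such as that of Chrne, were searched on both strands in the 250 bases before each start. No E-box overlapped the N-box of Chrne. Chrng had 3 E-boxes, at 155, 132 and 75 bases before the start. Its start in RefSeq lies inside the gene model of the count table. Chrna1, Chrnb1 and Musk had 3 E-boxes each. Chrne had 1 E-box, at 138 bases, and an N-box at 76 bases. At least 1 E-box is in 66.2% and at least 3 are in 12.2% of the 32851 RefSeq windows of the same length, and an N-box is in 12%. Motif letters are in capitals, 5′ to 3′ in the direction of the gene, and the match is a description of the letters.
Chrng, chr1:87205561-87205760, plus strand: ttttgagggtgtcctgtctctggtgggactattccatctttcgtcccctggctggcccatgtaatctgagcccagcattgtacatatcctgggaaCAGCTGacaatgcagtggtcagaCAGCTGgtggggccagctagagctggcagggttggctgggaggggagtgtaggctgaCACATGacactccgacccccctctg
Chrna1, chr2:73580404-73580433, minus strand: gctCAGCTGtcatgcgggcacaCAGGTGat
Chrna1, chr2:73580365-73580394, minus strand: tagctgtggagtCAGCTGgcttccaaggcc
Musk, chr4:58285882-58285911, plus strand: gtgagttctcccCAGCTGgccacgtccatc
Chrne with its E-box, chr11:70619315-70619344, minus strand: cacaggatggggCAGCTGcctcccccaccc
Chrne with its N-box, chr11:70619253-70619282, minus strand: cccaaacctagcCCGGAActaacaccctcc

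The subunits that fetal and adult receptors share did not move as 1 group. Chrna1, which encodes the alpha subunit that holds most of the acetylcholine binding site, had 299, 274, 279 and 238 CPM in old vehicle libraries 7 to 10 at day 7, against 22.9, 123, 34.3 and 26.2 CPM in old uninjured libraries 6 to 9. All injured libraries were above all uninjured ones, and Chrna1 rose by 2.40 (SE 0.40, adjusted p = 8.29e-06). Young day 7 libraries 4 to 7 had 202, 191, 180 and 134 CPM, against 30.7, 14.9, 16.7 and 12 CPM in young uninjured libraries 1 to 4. The young rise was 3.25 (SE 0.42, adjusted p = 1.76e-07), or 3.72 without young uninjured libraries 1 and 3.

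Chrnd, the delta subunit gene, lies 4586 bases from Chrng on chromosome 1, at chr1:87190607-87200070, with Chrng at chr1:87204657-87212694 of mm10, both on the plus strand. It had 53.4, 55.8, 49.2 and 46.5 CPM in old vehicle libraries 7 to 10 at day 7, against 2.75, 22.4, 5.6 and 1.63 CPM in old uninjured libraries 6 to 9. Again the groups did not overlap. The rise was 2.63 (SE 0.47, adjusted p = 2.00e-05), or 3.98 without old uninjured library 7. In young muscle Chrnd was at 33.9 ± 8.75 CPM at day 7 and 1.58 ± 0.253 CPM uninjured, a 21.4-fold rise (4.42, SE 0.55, adjusted p = 1.03e-07).

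Chrnb1, the beta subunit gene, varied least among the subunit genes. It was at 101 ± 33.0 CPM at day 7 in old vehicle muscle and at 74.6 ± 21.4 CPM uninjured (0.44, adjusted p = 0.0871), and it was called without old uninjured library 7 (0.64, 0.0202), without old day 7 library 7 (0.62, 0.0164) and by DESeq2 (0.54, 0.0325). In young muscle it was at 136 ± 25.6 CPM at day 7 and 61.9 ± 15.4 CPM uninjured, a rise of 1.13 (adjusted p = 8.24e-05). Per kilobase of gene length, young uninjured muscle had 24.5 CPM of Chrnb1, 4.23 of Chrna1, 3.66 of Chrne, 0.48 of Chrnd and 0.116 of Chrng. At day 7 in old vehicle muscle these levels per kilobase were 62.2 for Chrna1, 40.0 for Chrnb1, 15.6 for Chrnd, 14.2 for Chrng and 4.54 for Chrne. Chrnb1 was thus the highest of the subunit genes in uninjured young muscle, and Chrna1 in old vehicle muscle at day 7.

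From day 7 to day 35, Chrna1, Chrnb1 and Chrnd fell in every group. For Chrna1 the values were -3.55 in old BI01, -2.42 in old vehicle and -3.05 in young muscle. Those of Chrnd were -4.28 in old BI01, -2.87 in old vehicle and -3.62 in young muscle, and those of Chrnb1 -1.03, -0.72 and -1.42 in the same 3 groups. Adjusted p-values were 7.53e-08 to 0.00698, and the Chrnb1 call in old vehicle muscle was lost without day 7 library 9 (-0.53, 0.0513). Against uninjured muscle none of these 3 genes was called at day 35 at either age. In old muscle the Chrna1 value was -0.02 and that of Chrnd -0.24. Without old uninjured library 7, both turned positive (0.88, adjusted p = 0.0946, and 1.11, adjusted p = 0.0563).

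**Figure D3:**
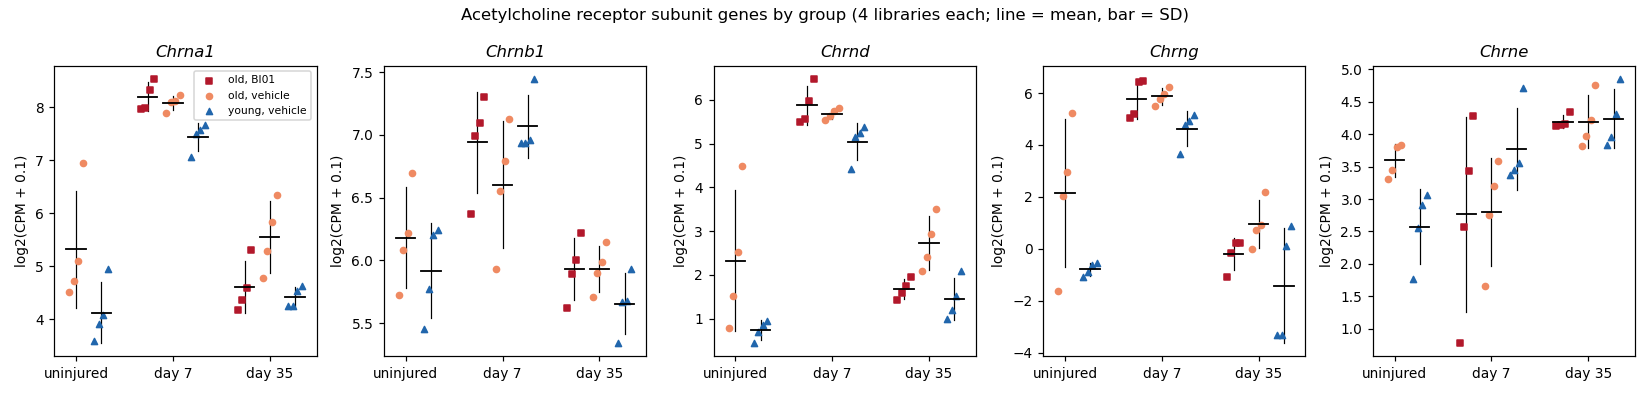
Levels of the 5 acetylcholine receptor subunit genes, as log2 of CPM plus 0.1 (vertical axis, with its own scale in each panel), in old BI01 (squares), old vehicle (circles) and young vehicle (triangles) muscle at each stage; points are libraries, lines means and bars SDs. Chrng is lowest in young day 35 libraries 2 and 4, which have no counts, and Chrne is higher at day 35 than in uninjured muscle in all young libraries.

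Counts of members called at day 35 against day 7 were 0 higher and 6 lower in old BI01 muscle (55.6% of all genes called, 26.2% higher and 29.4% lower), 3 higher and 5 lower in old vehicle muscle (58.9% of all genes, 27.5% higher and 31.4% lower) and 0 higher and 7 lower in young muscle (55.3% of all genes, 29.3% called lower). The 3 called higher in old vehicle muscle were Chrne, Colq and Ache, and not every alternative fit kept the calls of Chrne and Ache.

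Musk, which encodes the kinase of the clustering pathway, had 13, 23.1, 15.6 and 25.8 CPM in old vehicle libraries 7 to 10 at day 7, against 14.8, 18.0, 16.6 and 17.0 CPM in old uninjured libraries 6 to 9. These groups overlapped (0.22, adjusted p = 0.695). Young day 7 libraries 4 to 7 had 21.9, 13.4, 14.4 and 13.3 CPM, against 102, 22.7, 136 and 9.65 CPM in young uninjured libraries 1 to 4. Uninjured library 4 lay below all injured libraries, and the other 3 lay above them. Musk fell by 2.10 (SE 0.48, adjusted p = 0.000457), but without young uninjured libraries 1 and 3 the value was -0.04 (adjusted p = 0.942).

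At day 35 Musk was low in all 3 groups. Old BI01 libraries 6 to 9 had 7.48, 10.2, 7.37 and 3.95 CPM, old vehicle libraries 6 to 9 had 4.76, 7.00, 6.40 and 6.88 CPM and young libraries 1 to 4 had 2.65, 8.82, 4.4 and 3.92 CPM. All of the vehicle libraries lay below every uninjured library of their age. In young muscle Musk fell by 3.75 against uninjured (SE 0.53, adjusted p = 2.74e-05), and the fall held without libraries 1 and 3 (-1.69, adjusted p = 0.00822). In old vehicle muscle the value was -1.41 (adjusted p = 0.0987, and 0.0332 by DESeq2, at -1.40). Against day 7 Musk fell at day 35, with values of -1.19 in old BI01 muscle (adjusted p = 0.0387), -1.63 in old vehicle muscle (0.00575) and -1.65 in young muscle (0.006). The BI01 call was lost without any 1 of 5 of its 8 libraries (day 7 libraries 1 and 2, day 35 libraries 6, 8 and 9), with adjusted p from 0.0687 to 0.12 and values of -0.99 to -1.21.

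Lrp4, the agrin receptor gene, rose with injury at day 7, and its day 35 means were above the uninjured means at both ages. It had 21.4, 32.9, 24.1 and 56.2 CPM in old vehicle libraries 7 to 10 at day 7, against 20.1, 12.5, 13 and 14.7 CPM in old uninjured libraries 6 to 9. The lowest injured library was just above the highest uninjured one, and Lrp4 rose by 1.16 (SE 0.24, adjusted p = 0.000109). In young muscle it was at 34.4 ± 7.17 CPM at day 7 and 7.23 ± 1.12 CPM uninjured, a rise of 2.25 (SE 0.26, adjusted p = 7.94e-09). At day 35 it was at 23.5 ± 2.85 CPM in old BI01, 24.3 ± 4.02 CPM in old vehicle and 13.2 ± 4.33 CPM in young muscle. The young value was above uninjured muscle by 0.87 (adjusted p = 0.0176; lost without young uninjured library 1 at 0.78 and 0.0690, without young day 35 library 3 at 0.67 and 0.0867, or without young uninjured libraries 1 and 3 at 0.84 and 0.199). Young day 35 libraries began at 7.88 CPM and overlapped young uninjured ones, which reached 8.28 CPM. The old value was 0.69 (adjusted p = 0.0943), with all 4 injured libraries above all 4 uninjured ones. From day 7 to day 35 Lrp4 fell by 1.38 in young muscle. In old vehicle muscle that value was -0.47 (adjusted p = 0.0897), called by DESeq2 (-0.57, 0.0459) and without old day 7 library 7 (-0.63, 0.0254) or 9 (-0.60, 0.0389).

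Dok7, which encodes the adaptor inside the fibre, moved least of the 10 genes. Its highest group mean was 33.2 ± 5.97 CPM in young day 7 muscle and its lowest 19.5 ± 2.30 CPM in young uninjured muscle, and each group in the order of means overlapped the next. It rose by 0.77 at day 7 in young muscle (SE 0.17, adjusted p = 0.000344, with no overlap). Dok7 in old vehicle muscle was at 26.1 ± 3.21 CPM at day 7 and 24.5 ± 2.96 CPM uninjured (0.09, adjusted p = 0.654). At day 35 Dok7 fell against day 7 in old BI01 muscle (-0.52, adjusted p = 0.0117, and 0.0795 without BI01 day 35 library 6, at -0.34) and in young muscle (-0.60, adjusted p = 0.00388).

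Ache and Colq rose together at day 7 in young muscle but had the highest means of the vehicle groups at day 35 in old muscle. Ache had 66.3, 82.0, 52.5 and 95.7 CPM in young day 7 libraries 4 to 7, against 13, 67.5, 10.8 and 40.2 CPM in young uninjured libraries 1 to 4. Uninjured library 2 lay within the injured range. The rise was 1.17 (SE 0.34, adjusted p = 0.00377). It was 1.80 without young uninjured library 2 and 0.46 (adjusted p = 0.118) without young uninjured libraries 1 and 3, the 2 lowest for Ache and highest for Musk. Old vehicle muscle had Ache at 40.8 ± 8.82 CPM at day 7 and 55.3 ± 10.8 CPM uninjured (-0.44, adjusted p = 0.251; 0.56 with library size alone).

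Colq had 7.55, 10.7, 11.9 and 14.4 CPM in young day 7 libraries 4 to 7, against 6.42, 4.72, 1.75 and 4.15 CPM in young uninjured libraries 1 to 4, with no overlap. It rose by 1.37 (SE 0.34, adjusted p = 0.000944), or by 1.32 without young uninjured libraries 1 and 3. Old vehicle muscle had Colq at 7.25 ± 2.22 CPM at day 7 and 8.41 ± 4.72 CPM uninjured (-0.23, adjusted p = 0.557), and the sign turned with library size alone (0.79) and without old uninjured library 9 (0.21).

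From day 7 to day 35 the enzyme and its tail rose in old vehicle muscle in the main fit. Ache was at 85.5, 66.9, 88.0 and 93.8 CPM in libraries 6 to 9 at day 35, against 35.9, 48.8, 47.5 and 30.8 CPM in libraries 7 to 10 at day 7, and it rose by 1.04 (SE 0.33, adjusted p = 0.00916). The Ache call held whichever library was left out. It was lost in 1 of the other alternative fits, at 0.09 (adjusted p = 0.81). Colq was at 13.1, 26, 12.4 and 13.3 CPM at day 35, against 7.80, 9.68, 7.19 and 4.33 CPM at day 7, and it rose by 1.16 (SE 0.33, adjusted p = 0.00313). Neither pair of groups overlapped. In young muscle the same comparison gave -0.21 for Ache (adjusted p = 0.606) and -0.63 for Colq (adjusted p = 0.104). Alternative fits took the young Ache value down to -0.87, and 1 of them called it lower (adjusted p = 0.0211). In old BI01 muscle it gave 0.57 for Ache (adjusted p = 0.142, and -0.30 with library size alone) and -0.67 for Colq (adjusted p = 0.0842, and 0.0441 by DESeq2). Against uninjured muscle at day 35, Ache was at 63.9 ± 11.1 CPM in young injured and 32.9 ± 26.7 CPM in young uninjured muscle (0.96, adjusted p = 0.0508). It was called by DESeq2 (0.91, 0.0305) and without young uninjured library 2 (1.59, 0.000478) or 4 (1.07, 0.0465), and was at 0.25 (0.698) without libraries 1 and 3. Colq in old vehicle muscle at day 35 (0.93, adjusted p = 0.0971) was called without old uninjured library 9 (1.37, 0.0157). Ache overlaps Mir8116 and Gm42456, which had 629 and 58 counts in all libraries beside 33973 for Ache.

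**Figure D4:**
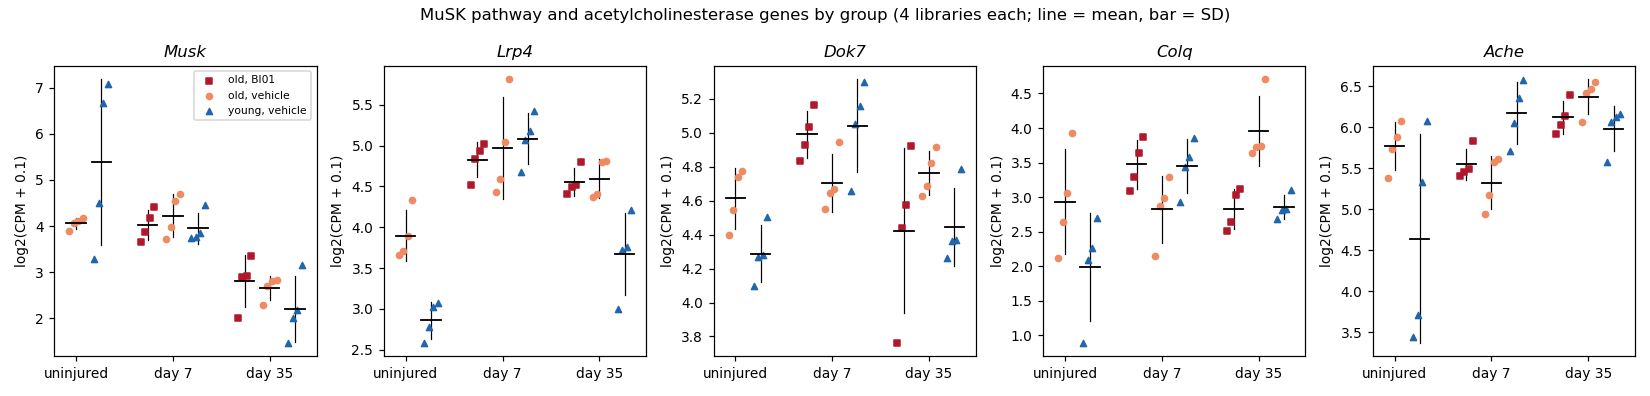
Levels of Musk, Lrp4, Dok7, Colq and Ache, as log2 of CPM plus 0.1 (vertical axis, with its own scale in each panel), in old BI01 (squares), old vehicle (circles) and young vehicle (triangles) muscle at each stage; points are libraries, lines means and bars SDs. In young uninjured muscle Musk and Ache each split into 2 high and 2 low libraries, and Musk at day 35 lies under uninjured levels in all vehicle libraries.

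Old was set against young uninjured muscle to compare these genes between the ages without injury. Whether the 2 groups also differed in handling is not stated here. The set had 4 genes higher (Chrna1, Chrnd, Chrng and Lrp4) and 1 lower (Musk) in old muscle, where 13.4% of all genes were called, 5.79% higher and 7.65% lower. Lrp4 was at 20.1, 12.5, 13 and 14.7 CPM in old libraries 6 to 9, against 5.88, 6.76, 8.28 and 8.01 CPM in young libraries 1 to 4. All old libraries were above all young ones, and Lrp4 rose by 1.06 (SE 0.25, adjusted p = 0.00519). Chrng rose by 4.68 (SE 1.02, adjusted p = 0.00340), Chrnd by 2.38 (SE 0.54, adjusted p = 0.00429) and Chrna1 by 1.48 (SE 0.40, adjusted p = 0.0138), but the old libraries were spread widely. Chrng ran from 0.226 CPM in old library 9, under all young libraries, to 37.7 CPM in old library 7. Musk fell by 2.02 (SE 0.48, adjusted p = 0.00584).

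Single libraries carried much of this comparison. Without old library 7 the values were 2.95 for Chrng (adjusted p = 0.0440), 1.03 for Chrnd (0.0936) and 0.58 for Chrna1 (0.240). The embryonic myosin gene Myh3 was ordered like Chrng in the old libraries, at 422 CPM in library 7, 165 in library 8, 66.3 in library 6 and 1.04 in library 9, and its part in the Chrng result was not tested. Without young library 3 the Musk call was lost (-1.43, adjusted p = 0.0654), as was that of Chrna1 (1.43, 0.0578). Without young libraries 1 and 3 together no member was called, in a fit that called 134 genes in place of 2302. Musk was then at 0.05 (adjusted p = 0.993), Chrng at 4.62 (0.160), Chrnd at 2.59 (0.137), Chrna1 at 1.96 (0.0848) and Lrp4 at 1.04 (0.143). Of the other members, Chrne averaged 12.2 ± 2.14 CPM in old muscle and 6.19 ± 2.18 CPM in young with no overlap, but was not called (0.97, adjusted p = 0.180). Colq (0.99, adjusted p = 0.0524) was called by DESeq2 (0.94, 0.0389) and without young library 1 (1.27, 0.0374) or old library 6 (1.12, 0.0479) or 8 (1.21, 0.0237), and Ache (0.75, 0.141) without young library 2 (1.38, 0.00214).

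**Figure D5:**
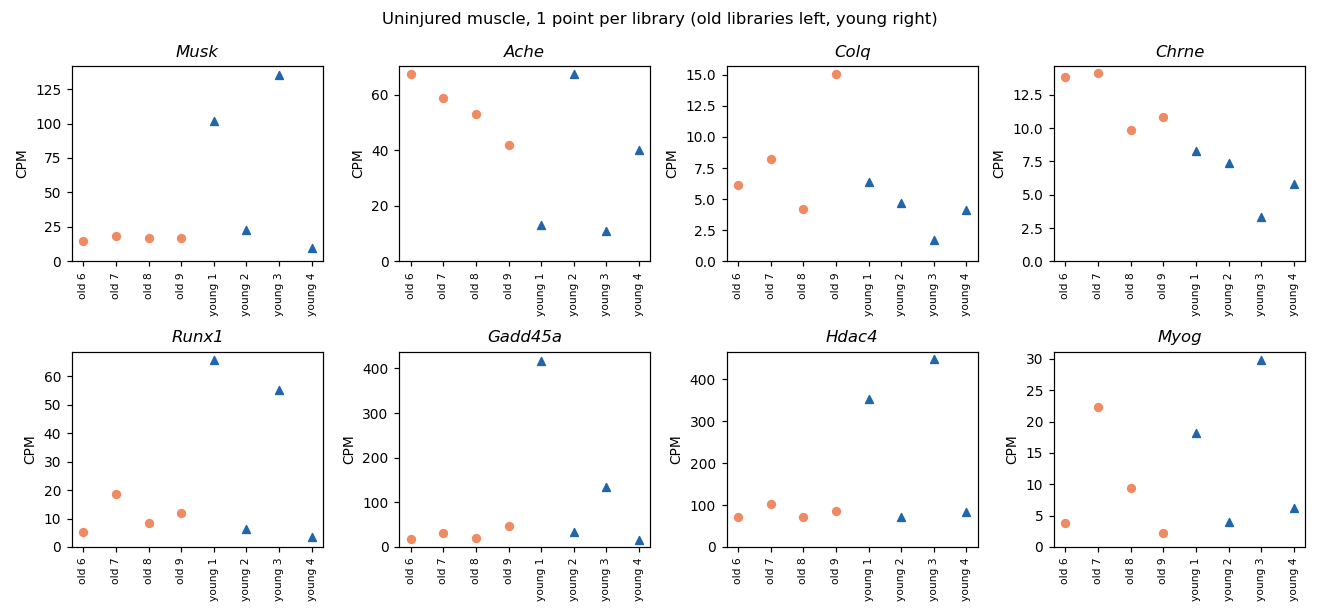
Levels in CPM (vertical axes start at 0) of Musk, Ache, Colq and Chrne and of the genes Runx1, Gadd45a, Hdac4 and Myog in each uninjured library, old libraries 6 to 9 (circles) left and young libraries 1 to 4 (triangles) right. Young libraries 1 and 3 are the 2 highest for Musk (102 and 136 CPM), Runx1, Gadd45a and Hdac4 and the 2 lowest for Ache (13 and 10.8 CPM).

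Old was also set against young vehicle muscle after injury. At day 7 no member was called between old and young vehicle muscle (2.43% of all genes called). An unadjusted p under 0.05 was found for 2 members, Ache and Dok7, and for 3234 of the 17121 genes. DESeq2 called no member. Ache averaged 40.8 ± 8.82 CPM in old muscle and 74.1 ± 18.8 CPM in young, with no overlap (-0.86, adjusted p = 0.151). Chrng averaged 59.2 ± 12.8 CPM in old muscle and 26.4 ± 9.83 CPM in young, also with no overlap (1.16, 95% interval -0.28 to 2.61, adjusted p = 0.381). Chrna1 (238 to 299 CPM in old, 134 to 202 CPM in young) and Chrnd (46.5 to 55.8 and 21.3 to 41.3 CPM) did not overlap either. At day 35, Lrp4 and Colq were called higher in old vehicle muscle (3.51% of all genes called, 1.72% higher and 1.79% lower).

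Colq at day 35 was at 13.1, 26, 12.4 and 13.3 CPM in old vehicle libraries 6 to 9, against 6.33, 7.02, 6.93 and 8.46 CPM in young libraries 1 to 4. The groups did not overlap, and Colq rose by 1.18 (SE 0.33, adjusted p = 0.0398). Lrp4 libraries lay at 20.6 to 27.9 CPM in old muscle and at 7.88 to 18.5 CPM in young, and Lrp4 rose by 0.88 (SE 0.24, adjusted p = 0.0348). Both calls were close to the threshold. That of Colq was lost without any 1 of the 8 libraries except old library 8, with adjusted p from 0.0515 to 0.231 and a value of 0.85 without old library 7. Leaving out old library 6 or 9, or young library 1, 2 or 4, ended that of Lrp4 (adjusted p 0.0749 to 0.155). Chrna1 (1.26, adjusted p = 0.0758) was called by DESeq2 (1.27, 0.0161) and without old library 9 (1.47, 0.0499), and Chrnd (1.35, 0.151) by DESeq2 (1.36, 0.0467).

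The response to injury itself was compared between ages as a difference of differences at day 7, old minus young. Here 4 members were called, in a comparison where 7.70% of all genes were, 3.22% higher and 4.48% lower. Musk was positive (2.32, SE 0.67, adjusted p = 0.0321). Lrp4 (-1.09, SE 0.34, adjusted p = 0.0460), Colq (-1.60, SE 0.47, adjusted p = 0.0345) and Ache (-1.61, SE 0.47, adjusted p = 0.0347) were negative. The other 6 were also negative, from -0.67 for Dok7 to -3.52 for Chrng (SE 1.27, adjusted p = 0.0844).

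These calls depended on single libraries. Without young uninjured libraries 1 and 3 together no member was called, in a fit that called 62 genes in place of 1319. The values were then 0.25 for Musk (adjusted p = 0.869), -1.07 for Lrp4 (0.242), -1.55 for Colq (0.159) and -0.90 for Ache (0.191). Of 16 libraries left out in turn, 11 ended the call of Musk, 12 that of Lrp4, 5 that of Colq and 9 that of Ache, with adjusted p of 0.0501 to 0.121. The Musk call held without young uninjured library 2 or 4, young day 7 library 4 or old day 7 library 7 or 9. The Lrp4 call held without young uninjured library 4, old uninjured library 7, young day 7 library 5 or old day 7 library 10. The Colq call was lost without young uninjured library 3, old uninjured library 9, young day 7 library 6 or 7 or old day 7 library 10. The Ache call was lost without young uninjured library 1 or 3, old uninjured library 6, 7 or 8, young day 7 library 5 or 7 or old day 7 library 7 or 10. In the other direction, Chrng was called without old uninjured library 9 (-3.93, adjusted p = 0.0246), as was Chrnd (-2.14, 0.0337), and Dok7 without young day 7 library 4 (-0.79, 0.0394) or old day 7 library 9 (-0.77, 0.0430). Chrne was called without old day 7 library 9 (-2.20, 0.0352) and by DESeq2 (-1.82, 0.0307), which did not call Lrp4 (-1.0, 0.0528). At day 35 the difference of differences called no member and no gene (0% of all genes), with 1 member, Musk, and 1690 genes at an unadjusted p under 0.05. DESeq2 called 14 genes there.

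BI01 was compared with vehicle in old muscle at each time after injury. The test called no gene at day 7 and none at day 35 (0% of all genes each), while 1126 and 530 genes had an unadjusted p under 0.05 and DESeq2 called 1 and 12 genes, no member among them. With 1 library left out, the test called 54 genes at day 7 without old vehicle library 9, 1 gene without BI01 library 3 and none without any other, and it called none at day 35; no member was called in any of these fits. At day 7 no member had an unadjusted p under 0.05, and all 10 pairs of groups overlapped. The share of all genes whose groups do not overlap was not counted, here or in any other comparison. Chrng was at 60.4 ± 29.9 CPM with BI01 and 59.2 ± 12.8 CPM with vehicle (0.03, 95% interval -1.39 to 1.45). Musk was at 16.5 ± 3.82 CPM with BI01 and 19.4 ± 6.03 CPM with vehicle (-0.23, 95% interval -1.18 to 0.72). The interval of Chrng includes changes of 2-fold either way, and that of Musk a 2-fold fall.

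At day 35, 3 members had an unadjusted p under 0.05: Colq, Chrna1 and Chrnd. Colq had 8.56, 5.6, 6.16 and 8.03 CPM in BI01 libraries 6 to 9, against 13.1, 26, 12.4 and 13.3 CPM in vehicle libraries 6 to 9. All BI01 libraries were below all vehicle libraries, but Colq did not pass the test over all genes (-1.19, 95% interval -1.87 to -0.52, adjusted p = 0.808). Chrnd had 3.24, 2.91, 3.75 and 2.58 CPM with BI01, against 5.21, 7.49, 11.2 and 4.13 CPM with vehicle, likewise without overlap (-1.17, 95% interval -2.19 to -0.14, adjusted p = 1.00). Chrna1 was at 25.5 ± 9.74 CPM with BI01 and 51.1 ± 23.6 CPM with vehicle, with overlap (-1.0, adjusted p = 1.00). The remaining 7 members were at -1.37 (Chrng) to 0.21 (Musk). The change from day 7 to day 35 did not differ between BI01 and vehicle for any gene by the test (0% of all genes, 825 at an unadjusted p under 0.05, 2 called by DESeq2), with 4 members at an unadjusted p under 0.05. The lowest p of a member in it was that of Colq (-1.82, SE 0.46, adjusted p = 0.921).

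Other genes of the synapse were followed by lists from general knowledge, to be read beside the shares of all genes called at day 7, 34.4% higher and 29.8% lower in old vehicle and 33.3% higher and 27.5% lower in young muscle. Over all lists, 55 genes were tested, of which 27 were higher and 14 lower in young muscle at day 7. Without young uninjured libraries 1 and 3 the counts were 26 and 12, in a fit that called 8731 genes in place of 10413. Of 11 genes for receptor clustering and MuSK signalling, 3 were higher and 6 lower at day 7 in old vehicle muscle, and 3 and 3 in young muscle. Agrn, which encodes agrin, rose to 44.2 ± 2.54 CPM in old vehicle muscle at day 7, against 21.0 ± 1.59 CPM uninjured (1.07, adjusted p = 7.84e-08), and to 35.7 ± 0.927 CPM in young muscle, against 13.8 ± 1.29 CPM uninjured (1.37, 1.73e-09). Rapsn, the scaffold that holds receptors together, fell to 22.0 ± 4.33 CPM in old vehicle muscle at day 7, against 32.2 ± 4.52 CPM uninjured (-0.55, adjusted p = 0.00232). In young muscle it was at 22.6 ± 2.34 CPM at day 7 and 26.1 ± 5.85 CPM uninjured (-0.21, adjusted p = 0.238). Pdzrn3, a ubiquitin ligase that acts on MuSK, fell at day 7 (-2.16 in old and -2.27 in young muscle).

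Genes known to respond to loss of the nerve had 5 of 8 higher and 2 lower at day 7 in old vehicle muscle, with a median of 2.36. In young muscle 4 were higher and 3 lower, with a median of 1.31. Without young libraries 1 and 3 the young counts were 5 higher and 2 lower, in a fit that called 8731 genes in place of 10413. The list sets no direction for each gene, so these counts are not a measure of nerve loss. The median over all genes, of which 34.4% were higher and 29.8% lower in old and 33.3% higher and 27.5% lower in young muscle, was 0.14 in old and 0.17 in young muscle. Myog, which encodes myogenin and is also high in differentiating myoblasts, was at 118 ± 56.7 CPM at day 7 and 9.44 ± 9.09 CPM uninjured in old vehicle muscle (3.62, adjusted p = 1.31e-05). In young muscle it was at 76.6 ± 26.9 CPM at day 7 and 14.6 ± 11.9 CPM uninjured (2.39, adjusted p = 0.00106). Ncam1, an adhesion molecule of immature and denervated fibres, rose by 3.47 in old and by 4.88 in young muscle. Other genes of the list had lower means at day 7. Hdac4 averaged 40.0 ± 21.4 CPM at day 7 and 83.2 ± 15.2 CPM uninjured in old vehicle muscle, and 44.8 ± 18.2 and 239 ± 191 CPM in young muscle. Dach2 averaged 0.0329 and 3.19 CPM in old vehicle muscle, and 0.0424 and 1.66 CPM in young muscle. Gadd45a averaged 12.9 ± 3.72 CPM at day 7 and 28.8 ± 13.4 CPM uninjured in old vehicle muscle. Gadd45a fell in young muscle to 11.1 ± 1.03 CPM at day 7, against 150 ± 186 CPM uninjured, where young libraries 1 and 3 had 418 and 134 CPM and libraries 2 and 4 had 33.4 and 14.9 CPM. Its log2 fold change was -3.76, and -1.13 (adjusted p = 0.0247) without libraries 1 and 3.

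At day 7 markers of several other cell types also moved with these genes. Summed levels of regenerating fibre genes were 3446 to 7735 CPM in old vehicle and 6776 to 8618 CPM in young muscle at day 7, and 97.5 to 1189 CPM in old and 47.2 to 87.2 CPM in young uninjured muscle. Fibroblast and fibro-adipogenic markers (5 genes) summed to 7643 to 12173 CPM in old vehicle and 6278 to 9489 CPM in young muscle at day 7, and 162 to 451 CPM in old and 224 to 403 CPM in young uninjured muscle. Satellite cell and myoblast markers (5 genes) summed to 192 to 391 CPM in old vehicle and 187 to 262 CPM in young muscle at day 7, and 72.8 to 136 CPM in old and 70.3 to 134 CPM in young uninjured muscle. Macrophage markers (6 genes) summed to 613 to 1083 CPM in old vehicle and 318 to 640 CPM in young muscle at day 7, and 11.4 to 70.8 CPM in old and 15.3 to 59.4 CPM in young uninjured muscle. Schwann cell markers (6 genes), for the glia that cap the synapse, went the other way. They summed to 11.5 to 17.4 CPM in old vehicle and 9.85 to 13.8 CPM in young muscle at day 7, and 19.2 to 25.9 CPM in old and 12.1 to 24.3 CPM in young uninjured muscle. Endothelial markers (4 genes) summed to 198 to 274 CPM in old vehicle and 238 to 287 CPM in young muscle at day 7, and 183 to 226 CPM in old and 195 to 229 CPM in young uninjured muscle. The part of these cells in the results on the 10 genes was not tested. Young day 7 library 7, which had the lowest Chrng share (16.4%) and the highest Chrne (26.1 CPM), also had the highest sum of adult fast fibre genes of the 4 young day 7 libraries (155658 CPM, against 73063 to 102119 CPM). Old vehicle day 7 library 7, with the highest Chrng share of its group (90.9%), had the lowest such sum (10666 CPM, against 54156 to 69863 CPM).

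Transcription factors and receptors that act on synaptic genes had 6 of 8 higher and 1 lower at day 7 in old vehicle muscle, and 6 and 2 in young muscle, where 34.4% of all genes were higher and 29.8% lower in old and 33.3% higher and 27.5% lower in young muscle. The same shares of all genes apply to the basal lamina, utrophin complex and postsynaptic fibre counts with all libraries. Without young libraries 1 and 3 these counts were 5 higher and 0 lower, 3 and 1, and 3 and 2 in young muscle. That fit called 8731 genes in place of 10413. Erbb2 and Erbb3, receptors for neuregulin, rose by 2.39 and 2.53 in old and by 2.38 and 1.93 in young muscle. Etv5, a factor known in mice for synaptic expression of receptor genes, rose by 1.03 in old muscle. In young muscle Etv5 averaged 20.3 ± 1.13 CPM at day 7 and 9.26 ± 2.82 CPM uninjured, with no overlap. Of 9 genes for the synaptic basal lamina, 5 rose at day 7 at each age and 1 fell in the young. Nid2 (3.33 in old, 3.66 in young), Lama4 (2.75 and 3.27) and Col4a5 (2.35 and 3.71) were among them, and these are also made by cells outside the synapse. Among utrophin and dystroglycan complex genes, 3 of 6 rose and 2 fell in old and 3 rose and 1 fell in young muscle. Utrn, the utrophin gene, rose by 1.54 in old and by 1.45 in young muscle. Of the other nicotinic receptor subunits, 5 of 11 passed the filter. Chrna10 fell (-2.73 in old and -2.25 in young muscle), and Chrnb2 rose by 2.73 in old and by 2.30 in young muscle (1.69, adjusted p = 0.0535, without young libraries 1 and 3). Prima1, which anchors acetylcholinesterase in membranes, fell to 0.0859 CPM in old vehicle muscle at day 7, against 2.56 CPM uninjured (-4.88, adjusted p = 1.37e-05), and to 0.109 CPM in young muscle, against 4.69 CPM uninjured (-5.29, adjusted p = 3.73e-06). Among postsynaptic fibre genes, 3 of 6 rose and 3 fell in old and 4 rose and 2 fell in young muscle, with the sodium channel gene Scn4a lower (-2.56 and -2.41).

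With age in uninjured muscle, 5 of the 55 list genes were called higher and 5 lower, beside 5.79% and 7.65% of all genes. None was called without young libraries 1 and 3, in a fit that called 134 genes in place of 2302. Agrn rose in old muscle (21.0 ± 1.59 against 13.8 ± 1.29 CPM, 0.61, adjusted p = 0.00470, and 0.0981 without those libraries), as did Ncam1 (1.90, adjusted p = 0.00483, and 0.130 without them), and Gadd45a (-2.38, adjusted p = 0.00953) and Hdac4 (-1.52, adjusted p = 0.0150) were lower. Gadd45a and Hdac4 were higher in young libraries 1 and 3 than in 2 and 4, and without 1 and 3 their values were 0.27 (adjusted p = 0.878) and 0.12 (0.943). At day 35 against uninjured, the clustering list had 1 higher and 2 lower in old vehicle muscle, where 3.17% of all genes were higher and 2.47% lower, and 2 and 4 in young muscle, where 7.06% were higher and 8.66% lower. Without young libraries 1 and 3 the young counts were 2 and 2, in a fit that called 388 genes in place of 2691. Rapsn was at 25.6 ± 3.07 CPM at day 35 and 32.2 ± 4.52 CPM uninjured in old vehicle muscle (-0.33, adjusted p = 0.257). In young muscle it fell to 19.1 ± 2.42 CPM, against 26.1 ± 5.85 CPM uninjured (-0.45, adjusted p = 0.0454; -0.15 and 0.766 without young libraries 1 and 3). No gene of any list was called between BI01 and vehicle.

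Each member was also set beside the 14283 other protein-coding genes by its profile, the log2 means of the 8 groups centred on their own mean, with the root mean square (RMS) difference as the measure. Chrng was nearest to Dclk1 (0.46), Pkhd1 (0.48) and Tnnt2 (0.57), against a median RMS of 2.74 over all candidates. Chrna1 was nearest to Lgals3 (0.16), P2ry12 (0.22) and Tnfrsf13b (0.24), and Chrnd to Ripply1 (0.20), Rapgefl1 (0.23) and Csf3r (0.23). The nearest to Chrne were Nrep (0.24), Aspa (0.25) and Grb14 (0.25), and to Chrnb1 Cacng4 (0.11), Gm9493 (0.12) and Pgap1 (0.14). Musk was nearest to Bcl2 (0.27), Hs3st3a1 (0.33) and Rab20 (0.34), Lrp4 to Ptprs (0.10), Angptl2 (0.12) and Plxna4 (0.13), and Dok7 to Golga7 (0.09), Ripply3 (0.11) and Ift43 (0.11). Colq was nearest to Asphd2 (0.25), Sh3tc2 (0.25) and Lrrc27 (0.26), and Ache to Gpt (0.15), Tab1 (0.18) and Pla2g4b (0.21). These points are 8 group means and are a description.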

How the data were processed

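The deposited file holds whole-number counts per gene, made by the authors from reads aligned to mm10 with HISAT2, per the submitters' processing notes. The counter, its annotation and its use of strand were not stated in those notes or labels. Columns were tied to groups by name; their numbers differ from the replicate numbers of the labels, so libraries go by group and table number. All 32 columns were used, with 14129350 to 30439358 counts each, and no 2 libraries were duplicates.

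Counts were fitted with edgeR 4.0.16 in R 4.3.3 (TMM scaling, filterByExpr, robust quasi-likelihood test, 1 mean per group, all 32 libraries), with Benjamini-Hochberg adjustment over 17121 genes. Intervals are 95%. DESeq2 1.42.0, library size alone, no filter, only the compared groups, and each library left out were alternatives. Leaving out young uninjured libraries 1 and 3 together and a block on the table number were added after seeing the data. Shares were tested with exact permutation tests (Python 3.11.15, scipy 1.17.1), and the counting intervals cover counting error only. The edgeR step was tested on simulated counts. The members and gene lists were chosen with earlier results of these data known. All 10 members are described, and up to 3 called genes of a list with the smallest p were named in each comparison. Rapsn, Agrn, Myog and Utrn outside that rule, and Runx1, Gadd45a, Hdac4 and Myh3 per library, were named after their values were seen. The day 7 means of Hdac4 and Dach2, of Gadd45a in old muscle and of Etv5 in young muscle were also added after their values were seen.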

Additional observations from a re-analysis of the deposited data

Results flagged for a closer look

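In 7 of 88 groups of 4 values, 1 library lay apart from the other 3 by more than Dixon's 95% critical value, which chance gives in about 1 of 20 groups. The high libraries were old uninjured library 7 for Chrna1 (123 CPM), young day 7 library 7 for Chrnb1 (174 CPM) and for Chrne (26.1 CPM), old BI01 day 35 library 9 for Chrne (20.1 CPM), old vehicle day 35 library 7 for Colq (26 CPM) and young day 7 library 4 for Musk (21.9 CPM). Young day 7 library 7 was also low for the Chrng share (16.4%). The test of the difference of the day 7 response, old minus young on the log2 scale, called Musk (2.32), Lrp4 (-1.09), Colq (-1.60) and Ache (-1.61). It called 7.70% of all genes. Without young uninjured libraries 1 and 3 no member was called, in a fit that called 62 genes in place of 1319. Leaving out 1 library gave 0 to 5 members called.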

How the results depend on the processing

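Of 130 results of 1 member in 1 comparison, 49 were called. Of these, 33 kept the call whichever library was left out, 48 under DESeq2, 44 with library size alone, 41 with no filter, 39 of 48 with only the compared groups, and 8 of 22 without young uninjured libraries 1 and 3. Counts of members called moved as follows, with the number of all genes called in brackets. The main fit called 10995 genes for day 7 in old muscle, 2302 for old against young uninjured and 601 for old against young at day 35. It called 966 for day 35 in old and 2691 in young muscle, and 1319 for the difference of the day 7 response. Library size alone gave 8 (12530) for day 7 in old muscle and 2 (1217) for the difference of the day 7 response. No filter gave 1 (817) for that difference and 1 (429) for old against young at day 35. DESeq2 gave 1 (1253) for day 35 in old muscle and 4 (922) for old against young at day 35. Only the compared groups gave 2 (1411) for old against young uninjured and 4 (2600) for day 35 in old muscle. That setting gave 4 (1950) for old against young at day 35 and 0 (173) for the difference of the day 7 response. Without libraries 1 and 3 the counts were 0 (134) for old against young uninjured, 1 (388) for day 35 in young muscle and 0 (62) for the difference of the day 7 response. Leaving out 1 library gave 3 to 6 members (1013 to 2850 genes) for old against young uninjured and 0 to 5 (573 to 2152) for the difference of the day 7 response. It gave 0 to 1 (0 to 40) for the difference of the day 35 response and 0 to 2 (330 to 442) for old against young at day 35. For day 35 against uninjured it gave 0 to 2 (556 to 885) in old and 2 to 4 (1309 to 3103) in young muscle. For day 35 against day 7 with BI01 it gave 4 to 7 (8670 to 9451).

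Signs turned with library size alone for Chrne (0.30), Colq (0.79) and Ache (0.56) at day 7 in old muscle, Chrna1 (0.017) at day 35 in old muscle, Chrne (-0.18), Dok7 (-0.88) and Ache (-0.30) at day 35 against day 7 in young, old vehicle and BI01 muscle, Lrp4 (0.26) between ages at day 7 and Chrng (-0.028) with BI01 at day 7. DESeq2 turned Dok7 (-0.031) at day 35 against day 7 in old vehicle muscle and Lrp4 (0.0081) between ages at day 7. Without libraries 1 and 3, Musk (0.049) turned between uninjured ages and Chrnb1 (0.053) at day 35 in young muscle. With 1 library left out, values spanned 0 for Chrng (-0.58 to 0.91) at day 35 in young muscle, Chrna1 (-0.34 to 0.88) and Chrnd (-0.59 to 1.11) at day 35 in old muscle, Colq (-0.44 to 0.21) and Dok7 (-6.5e-05 to 0.14) at day 7 in old muscle, Chrna1 (-1.21 to 0.046) in the difference of the day 7 response, Lrp4 (-0.39 to 0.13) at day 7 and Chrne (-0.28 to 0.19) at day 35 between ages. With BI01 they did so at day 7 for Chrng (-0.21 to 0.23), Lrp4 (-0.40 to 0.13) and Chrne (-0.34 to 0.65) and at day 35 for Chrne (-0.16 to 0.18), Lrp4 (-0.13 to 0.027) and Chrnb1 (-0.10 to 0.10), and the Chrng share at day 7 ran from -14.1 to 4.22 points. The causes were not tested.

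As a share of raw counts, the Chrng difference was 55.8 points for day 7 and -3.83 for day 35 in young muscle, -59.7 for day 35 against day 7 in young muscle, 7.05 between ages and -6.59 with BI01 at day 35. Table numbers were not taken to pair the libraries, since not every same-numbered correlation was over 0.1: they were 0.00889 to 0.109 in old (1 of 4 pairs over 0.1) and -0.0322 to 0.161 in young muscle (3 of 4) at day 35 and uninjured. In young muscle 3 of 4 libraries of each group correlated best with their own number, a hint of pairing, and in old muscle 2 of 4 did. Uninjured and day 35 columns of an age share their set and numbers in the column names. Old BI01 and old vehicle day 35 columns share numbers as well, and no label states a pairing. A block on the table numbers, fitted on the compared groups only, gave 4 members at day 35 in old muscle. It called 2571 genes in all there, beside 2600 for the compared groups without the block. It turned Chrna1 (0.22) and Chrnd (0.33) there and Chrnb1 (-8.26e-05) with BI01 at day 35. The block on the labels' replicate numbers was not run, since columns do not carry them. Chrng did not pass the filter in 3 of the alternative fits. With 4 to 7 counts per young uninjured library, depth limits the Chrng fold changes.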

Other observations

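Some synaptic genes outside the 10 were called above uninjured levels at day 35 at both ages. Col4a5, a basal lamina collagen gene, rose by 1.67 in old vehicle and by 2.72 in young muscle. Lama4, a laminin gene, rose by 1.09 in old and by 0.77 in young muscle. Sntb1, a syntrophin gene of the dystrophin and utrophin complexes, rose by 1.74 in old and by 2.33 in young muscle, and Etv4, an Ets factor gene, by 1.84 in old and by 2.15 in young muscle. Summed fibroblast markers were 836 to 1069 CPM in old vehicle and 484 to 810 CPM in young muscle at day 35, and 162 to 451 CPM in old and 224 to 403 CPM in young uninjured muscle, and their part in these results was not tested. Without young uninjured libraries 1 and 3, the young values were 2.70 for Col4a5 (adjusted p = 0.000873), 1.74 for Sntb1 (0.0133), 0.34 for Lama4 (0.650) and 1.95 for Etv4 (0.0648), so the calls of Lama4 and Etv4 were lost.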
